A study of Homo sapiens with 6 samples.

Results

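The genes described here are 37 genes of the autophagy machinery, chosen by symbol from a list of core autophagy genes, autophagy receptors and their transcription factors. All 37 were found among the 58735 genes of the count table, and all 37 passed the filter on low counts, which 15294 genes passed in all. RNA sequencing after selection of polyadenylated RNA was run on 6 samples of the human line KYSE410, which derives from an oesophageal squamous cell carcinoma, and reads were counted per gene. In 3 samples ADAR1, which edits adenosine to inosine where RNA forms double strands, was knocked down (siADAR1, labelled ADAR1 knockdown). The other 3 were controls, titled NC and labelled wild type. All samples carry 1 batch label and were grown in RPMI with serum and antibiotics. The labels give the treatment of both groups as none, and they do not say whether the controls received a control siRNA, so effects of siRNA delivery and of ADAR1 loss cannot be told apart. Neither the number of siRNAs nor the time after transfection is given in the sources used here. Separate cultures are not mentioned in the labels, so the spread behind the p-values below is that between 6 samples and may be technical.

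Macroautophagy encloses cytoplasm in a double membrane, the autophagosome, which then fuses with the lysosome. The ULK1 kinase complex starts the process, a class III phosphatidylinositol 3-kinase complex marks the growing membrane, and lipid supply by ATG9 and ATG2 proteins extends it. A pair of ubiquitin-like conjugation systems attach ATG8 proteins (the LC3 and GABARAP families) to the membrane lipid phosphatidylethanolamine, and ATG4 proteases prepare ATG8 proteins and release them again. Receptors such as p62, the product of SQSTM1, bind both cargo and ATG8 proteins and are themselves degraded with the cargo. TFEB and TFE3 are transcription factors that induce autophagy and lysosome genes when the kinase MTORC1 is inactive. Transcript counts measure none of the protein modifications or the flux of this pathway, so the values below say nothing of autophagic activity.

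Library totals were 15175619 to 17329443 counts. ADAR, the knockdown target, was at 454.8, 430.7 and 442.7 CPM (counts per-million, with library sizes adjusted by the TMM method) in control replicates 1 to 3 and at 92.6, 95.57 and 77.47 CPM in siADAR1 replicates 1 to 3. The labelled cell type was checked on 10 epithelial markers, whose levels summed to 1650 to 1730 CPM in control and 1530 to 1620 CPM in siADAR1. The largest parts in control came from CDH1, KRT17 and EPCAM, with means of 574.2, 291.6 and 255.0 CPM. CDH1 and EPCAM mark epithelial cells in general, so the sum is not particular to squamous cells. The basal keratin gene KRT5 had a mean of 33.9 CPM in control, and KRT14 was at 0 to 0.113 CPM in all libraries. Of the 9 markers tested, KRT17, TP63 and DSG3 rose, and KRT5, KRT6A, SFN and CDH1 fell, KRT6A from 26.3 to 5.60 CPM. Summed over each list, 6 leukocyte markers reached at most 1.33 CPM and 4 endothelial markers at most 2.15 CPM, with CD3E and KDR at 0 in all libraries. The 6 fibroblast markers summed to 40.0 to 59.2 CPM in control and 72.2 to 84.8 CPM in siADAR1, nearly all from LUM and COL1A1, and DCN was at 0 throughout. Mitochondrially encoded genes held 5.16% to 5.79% of counts in control and 3.72% to 4.88% in siADAR1, and the part of this difference in the results below was not tested. The libraries numbered 1 stood apart from the others of their groups. On the second principal component, with 10.2% of the variance, control replicate 1 had a score of 25.2, where the other controls had -10.9 and -11.6. The score of siADAR1 replicate 1 was 13.1, where the others had -6.23 and -9.63. Of the 37 autophagy genes, control replicate 1 was the library farthest from its group's median for 22, and siADAR1 replicate 1 for 27. Results that rest on these libraries are therefore also given without both of them, a choice made after the data had been seen. That fit keeps only replicates 2 and 3 of each group. Its p-values rest on the spread left after the outlying libraries were removed, so a smaller p there is not stronger evidence.

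More autophagy genes rose than fell in siADAR1. These are bulk samples, in which fewer cells of a kind and less RNA per cell cannot be told apart. Of the 37, 16 rose, 6 fell and 15 did not pass an adjusted p of 0.05 (edgeR quasi-likelihood test, adjusted over all tested genes). These calls covered 59.5% of the list, while 51.0% of all tested genes were called, 26.0% higher and 25.0% lower. The share called in either direction thus lay near the background, and the split between rises and falls was 16 to 6 against 3973 to 3830 over all genes. The median log2 fold change of the list was 0.27 (quartiles -0.06 and 0.70), and that of all tested genes was 0.00 (quartiles -0.41 and 0.48). Sizes were ordinary for this dataset. The median size of the log2 fold change was 0.46 in the list and 0.44 over all genes, 12 of the 37 were called with a change of at least 1.5-fold (31.5% of all tested genes), and 6 with at least 2-fold (14.8%). In CPM, the siADAR1 libraries lay wholly above the controls for 21 genes and wholly below for 6, and the groups overlapped for 10. Over all genes, 60.3% did not overlap. When libraries were scaled by their totals alone, without a composition factor, 19 members rose and 4 fell, while over all genes 4886 rose and 2888 fell and the median of all genes moved up by 0.12.

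**Figure D1:**
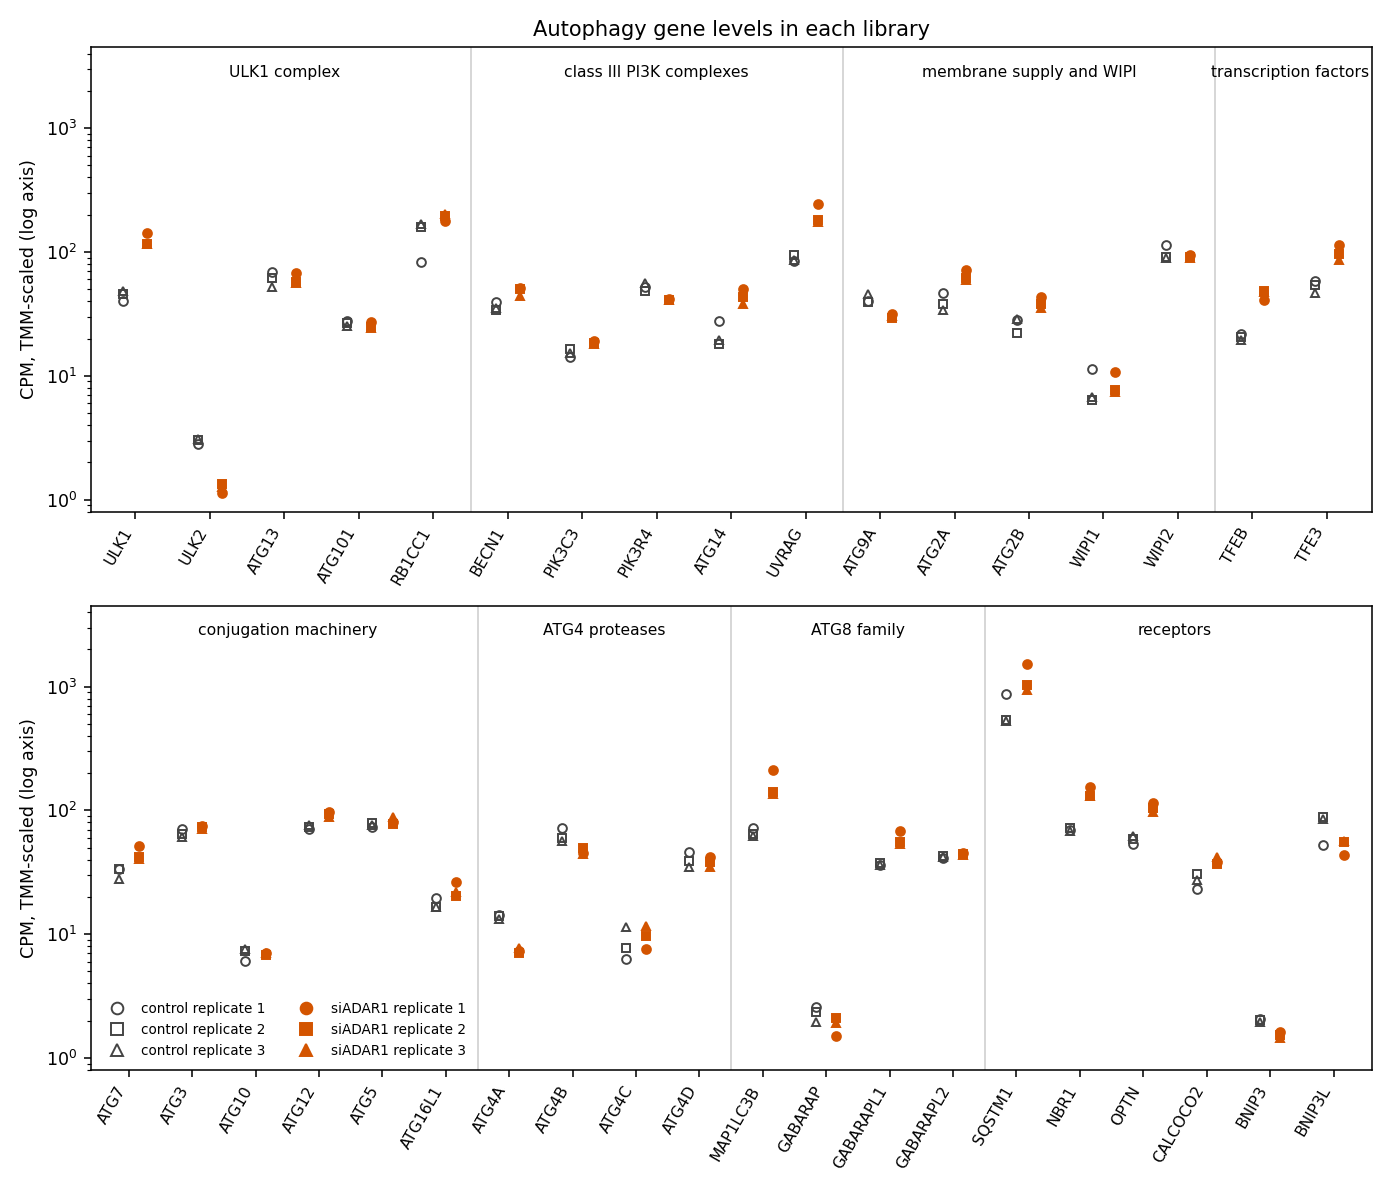
Level of each of the 37 autophagy genes in each library, in TMM-scaled CPM on a log axis, grouped by role; open grey symbols are controls, filled orange symbols siADAR1, and the symbol shape gives the replicate number. ULK1, UVRAG, MAP1LC3B, NBR1, TFEB and TFE3 lay wholly above their controls, ULK2 and ATG4A wholly below, and SQSTM1 was the most abundant of the 37 genes in every library.

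**Figure D2:**
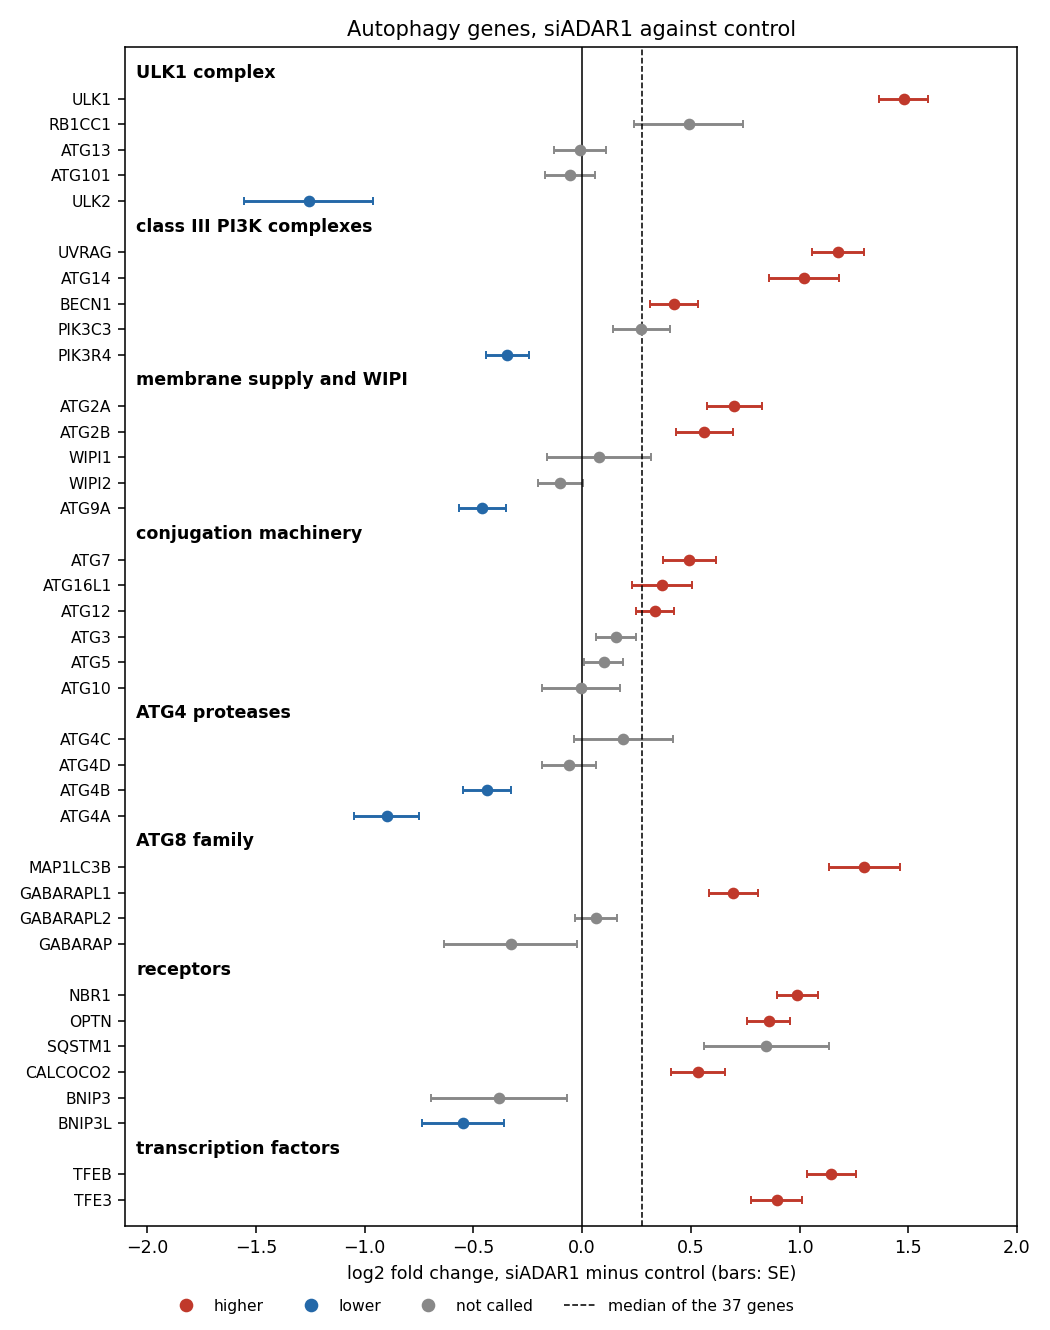
Log2 fold change of each gene, siADAR1 minus control, with its standard error, by role; red marks genes called higher, blue lower and grey not called at an adjusted p of 0.05, and the dashed line is the median of the 37 genes at 0.27. Every role except the transcription factors holds genes that were not called or moved the other way.

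Both transcription factor genes rose. TFEB (ENSG00000112561, chromosome 6, 41683978 to 41736259, GRCh38 throughout) was at 21.6, 20.8 and 19.6 CPM in control replicates 1 to 3 and at 41.3, 48.4 and 47.5 CPM in siADAR1. The groups were far apart and tight, and the log2 fold change was 1.15 ± 0.11 (SE; edgeR adjusted p = 4.42e-06). TFE3 (ENSG00000068323, chromosome X, 49028726 to 49043486), a relative that binds the same DNA element, was at 58.2, 54.4 and 46.6 CPM in control and 113, 95.8 and 86.7 CPM in siADAR1. It rose by 0.89 ± 0.12 (edgeR adjusted p = 4.51e-05). Per kilobase of annotated exons, TFE3 stayed the more abundant of the pair, at 12.4 against 3.66 CPM per kb in control and 23.0 against 8.10 CPM per kb in siADAR1. MITF, another relative of this family, rose from 15.0 to 45.8 CPM (log2 fold change 1.61 ± 0.15, edgeR adjusted p = 2.90e-06). These factors are regulated largely by phosphorylation and nuclear entry, which transcript levels do not show.

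To see what sequence the genes share, their promoters were searched for the element these factors bind. Sequences were taken from RefSeq (GRCh38.p14), from 250 bases before to 50 bases after each annotated start, and 33 of the 37 genes matched by symbol, 6 of them with several starts. RB1CC1, UVRAG, ATG4D and BNIP3L did not match. The E-box CACGTG, which reads the same on both strands, was present for 3 of the 33 genes, ATG14, ATG3 and BNIP3, or 9.09%, against 8.77% of all 27305 genes in that table (7.26% of its 35116 windows). Of these 3 genes only ATG14 was called higher. TCACGTGA, the same box with the flanks of the lysosomal CLEAR element, was present for ATG3 alone (3.03%, against 1.18% of all genes). That match lies after the start site of ATG3, and the ATG3 window printed below shows a different CACGTG without these flanks. In a list of 32 lysosome genes, by comparison, 9 of the 18 that matched held CACGTG and 5 held TCACGTGA. Searched on both strands, TGACNNNGC, the core of antioxidant response elements bound by NRF2, was present for 3 of 33 genes (9.09%, against 16.1% of all genes), and for 9 of the same 18 lysosome genes, as many as held CACGTG. The core of C/EBP-ATF response elements, TGATGNAA, was present for 0 of 33 (4.46% of all genes). The windows that hold these matches before the start site are shown because they are the places in these promoters where the named factors could be looked for, with the matched letters in capitals and each sequence read 5′ to 3′ on the gene's strand. A match is a description of letters only, and a gene with no match can hold the element elsewhere.
ATG14 (chr14:55411834-55411863, minus strand): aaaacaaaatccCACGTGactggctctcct
ATG3 (chr3:112561963-112561992, minus strand): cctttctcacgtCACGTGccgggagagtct
BNIP3 (chr10:131982040-131982069, minus strand): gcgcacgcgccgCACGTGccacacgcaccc
MAP1LC3B (chr16:87392279-87392308, plus strand): cgcgagtcaccTGACCAGGCtgcgggctga
CALCOCO2 (chr17:48830895-48830924, plus strand): ccgctcctgggGCCCGGTCAcctgaacact
ATG101 (chr12:52069847-52069876, plus strand): gtgtgcttctgTGACTACGCggatgttgtg
In CALCOCO2 the antioxidant core lies on the opposite strand, so its reverse complement is printed. ATG14, MAP1LC3B and CALCOCO2 rose, whereas ATG3, BNIP3 and ATG101 were not called.

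The ULK1 complex did not move as a unit. ULK1 (ENSG00000177169, chromosome 12, 131894651 to 131923167), the kinase that starts autophagosome formation, was at 40.5, 45.6 and 48.2 CPM in control and 142.7, 115.1 and 116.3 CPM in siADAR1. It had the largest rise of the 37 genes, a log2 fold change of 1.48 ± 0.11 (2.79-fold, edgeR adjusted p = 5.74e-07). Its paralog ULK2 (ENSG00000083290, chromosome 17, 19770829 to 19867936) had the largest fall, from 2.84, 3.02 and 3.08 CPM to 1.13, 1.33 and 1.27 CPM (log2 fold change -1.26 ± 0.30, edgeR adjusted p = 3.26e-03). ULK2 rested on few reads, 45 to 47 per control library and 20 or 21 per siADAR1 library. In log2 of the authors' fragments per kilobase per-million (FPKM) with a pseudocount of 1 and no filter, its call was lost (log2 difference -0.21, limma adjusted p = 0.149, the highest of 15 alternatives, of which the lowest gave 2.42e-03). ULK2 was at 0.303 CPM per kb in control and 0.126 in siADAR1, below that pseudocount, which shrinks the difference. This loss therefore says little about the fall, and the other 14 alternatives kept the call. The scaffold gene RB1CC1 (FIP200) was at 83.7, 158.7 and 167.9 CPM in control and 178.2, 194.8 and 203.0 CPM in siADAR1. Its controls were split by the low replicate 1, and the gene was not called (log2 fold change 0.49 ± 0.25, edgeR adjusted p = 0.150). Without both libraries numbered 1 the value was smaller but passed, at 0.283 (edgeR adjusted p = 5.02e-04). It also passed without control replicate 1 alone, at 0.22 (edgeR adjusted p = 0.0466). With the replicate number as a block it passed at 0.548 (edgeR adjusted p = 0.0067). Over 17 alternatives its adjusted p ranged from 5.02e-04 to 0.382. ATG13 and ATG101, the regulatory subunits, were not called, at -0.01 ± 0.12 and -0.06 ± 0.11.

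Among the 5 class III phosphatidylinositol 3-kinase genes, 3 rose and 1 fell (80% called, against 51.0% of all tested genes). The largest values belonged to UVRAG and ATG14, the subunits that set the alternative complexes apart. UVRAG (ENSG00000198382, chromosome 11, 75815167 to 76143195), the subunit of the endosomal and late-acting complex, was at 85.1, 94.1 and 86.4 CPM in control and 243.5, 180.7 and 176.0 CPM in siADAR1. Every siADAR1 library exceeded every control, siADAR1 replicate 1 most, and UVRAG rose by 1.18 ± 0.12 on the log2 scale (edgeR adjusted p = 5.41e-06). ATG14 (ENSG00000126775, chromosome 14, 55366392 to 55411858), which directs the complex to autophagosome formation sites, was at 27.7, 18.0 and 19.5 CPM in control and 50.4, 43.5 and 38.2 CPM in siADAR1. It rose by 1.02 ± 0.16 (edgeR adjusted p = 1.89e-04), and in both groups the libraries numbered 1 were the highest. BECN1, the shared scaffold beclin 1, rose from 36.3 ± 2.96 to 48.7 ± 4.21 CPM (SD, n = 3 each), a log2 fold change of 0.42 ± 0.11 (edgeR adjusted p = 5.96e-03). PIK3C3, the catalytic subunit VPS34, had 0.27 ± 0.13 and was not called (edgeR adjusted p = 0.0990). PIK3R4, the regulatory subunit VPS15, fell from 52.1 ± 3.89 to 41.1 ± 0.435 CPM (-0.34 ± 0.10, edgeR adjusted p = 0.0111), a call lost with library totals alone (-0.227, edgeR adjusted p = 0.0741, and 2.06e-03 to 0.0741 over all alternatives). The differences between subunits were not tested against each other.

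Of the 5 membrane supply and WIPI genes, both ATG2 genes rose and ATG9A fell (60% called, against 51.0% of all tested genes). ATG2A (ENSG00000110046, chromosome 11, 64894546 to 64917248), a lipid transfer protein, was at 46.6, 37.9 and 34.1 CPM in control and 71.9, 61.2 and 59.4 CPM in siADAR1 (log2 fold change 0.70 ± 0.13, edgeR adjusted p = 5.20e-04). Its paralog ATG2B rose alongside, by 0.56 ± 0.13 (edgeR adjusted p = 2.81e-03), from 26.3 ± 3.46 to 38.8 ± 4.39 CPM (SD, n = 3). ATG9A (chromosome 2, 219219380 to 219229717), the lipid scramblase carried on seed vesicles, fell from 41.9 ± 3.30 to 30.4 ± 1.19 CPM (-0.46 ± 0.11, edgeR adjusted p = 2.97e-03). An annotated gene on the same strand, AC068946.2, shares 38.8% of the exon bases of ATG9A and held 9 counts over all libraries against 3456, so reads in the shared part may have been split or dropped. WIPI1 and WIPI2, which bind the phosphatidylinositol 3-phosphate made by VPS34, were not called, at 0.08 ± 0.24 and -0.10 ± 0.11. WIPI1 showed the replicate pattern plainly, with 11.3 and 10.8 CPM in the libraries numbered 1 and 6.38 to 7.63 CPM in the other 4.

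In the conjugation machinery 3 of 6 genes rose, none by as much as 1.5-fold, a share called of 50% that lay near the background. ATG7, the enzyme that activates both ATG12 and ATG8 proteins, rose from 31.6 ± 3.08 to 44.5 ± 5.89 CPM (log2 fold change 0.49 ± 0.12, edgeR adjusted p = 4.75e-03). ATG12 was at 71.0, 74.0 and 76.3 CPM in control and 97.9, 92.8 and 88.6 CPM in siADAR1 (0.34 ± 0.09, edgeR adjusted p = 6.35e-03), and the groups did not overlap. ATG16L1, which places the ATG12-ATG5 conjugate on the membrane, passed narrowly (0.37 ± 0.14, edgeR adjusted p = 0.0424). Its call was lost without control replicate 2 (edgeR adjusted p = 0.129) and without control replicate 3 (0.139). The same held for siADAR1 replicate 1 (0.158) and siADAR1 replicate 3 (0.0642). With no filter on low counts (edgeR adjusted p = 0.0519) and in every fit on FPKM the call was lost too. In all, 8 of 17 alternatives lost it, and their adjusted p spanned 0.0118 to 0.158 over the 17. ATG3, ATG5 and ATG10 were not called, with values of 0.16 ± 0.09, 0.10 ± 0.09 and -0.00 ± 0.18. No conjugation gene fell.

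Of the 4 ATG4 protease genes, ATG4A and ATG4B fell and the others were not called, a share called of 50%, near the 51.0% of all tested genes. ATG4A (ENSG00000101844, chromosome X, 108091668 to 108154671) was at 14.2, 14.0 and 13.3 CPM in control and 7.37, 7.05 and 7.80 CPM in siADAR1. The replicates were tight in both groups, and the log2 fold change was -0.90 ± 0.15 (edgeR adjusted p = 2.81e-04). ATG4B, the most active family member on ATG8 proteins, fell from 62.9 ± 7.89 to 46.5 ± 2.56 CPM (-0.44 ± 0.11, edgeR adjusted p = 4.86e-03). ATG4C was variable in both groups, at 6.33 to 11.3 CPM in control and 7.66 to 11.7 CPM in siADAR1, and was not called (0.19 ± 0.23). ATG4D was at 40.1 ± 5.58 CPM in control and 38.4 ± 3.65 CPM in siADAR1 (-0.06 ± 0.12, not called).

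In the ATG8 family, MAP1LC3B and GABARAPL1 rose while GABARAPL2 and GABARAP were not called. MAP1LC3B (ENSG00000140941, chromosome 16, 87383995 to 87404779), which encodes LC3B, was at 72.1, 64.2 and 62.0 CPM in control and 212.4, 139.8 and 134.8 CPM in siADAR1. siADAR1 replicate 1 was the highest, and the log2 fold change was 1.30 ± 0.16 (edgeR adjusted p = 9.49e-05), or 1.12 without both libraries numbered 1 (edgeR adjusted p = 1.82e-14). Every one of 17 alternatives kept its call, with adjusted p of 9.12e-34 to 6.47e-03. MAP1LC3B2, a near-identical copy between which reads can be split, held 471 counts against 11195 and also rose (0.84 ± 0.26, edgeR adjusted p = 0.0146). GABARAPL1 (ENSG00000139112, chromosome 12, 10212458 to 10223130) was at 36.3, 37.3 and 36.3 CPM in control and 68.5, 55.9 and 53.4 CPM in siADAR1 (0.69 ± 0.11, edgeR adjusted p = 2.22e-04). GABARAPL2 (GATE-16) was at 41.6, 43.0 and 42.4 CPM in control and 45.3, 44.1 and 43.3 CPM in siADAR1 (0.06 ± 0.10, edgeR adjusted p = 0.601). Its siADAR1 libraries lay above the controls by a margin too small to pass. GABARAP was at 2.59, 2.35 and 1.97 CPM in control and 1.52, 2.10 and 1.90 CPM in siADAR1, from 27 to 43 counts per library (-0.33 ± 0.31, edgeR adjusted p = 0.389). On the same strand, AC120057.2 shares 30.5% of the exon bases of GABARAP and is listed with 0 counts. The low level of GABARAP is therefore uncertain, since reads in the shared exons may have been dropped.

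Of the 4 receptor genes for ubiquitin-marked cargo, NBR1, OPTN and CALCOCO2 rose, and SQSTM1 fell short of the test. With BNIP3 and BNIP3L below, 66.7% of the 6 receptor genes were called, against 51.0% of all tested genes. SQSTM1 (ENSG00000161011, chromosome 5, 179806398 to 179838078) was at 874, 538 and 528 CPM in control and 1537, 1022 and 931 CPM in siADAR1. The groups did not overlap, but the libraries numbered 1 were the highest of each, and the gene was not called (log2 fold change 0.85 ± 0.29, edgeR adjusted p = 0.0555). Without both of them the value was much the same, 0.873, and passed (edgeR adjusted p = 7.53e-13). That p-value rests on the spread of the remaining libraries alone and is not stronger evidence. SQSTM1 also passed without control replicate 1 (1.11, edgeR adjusted p = 0.0077), without siADAR1 replicate 3 (0.994, edgeR adjusted p = 0.048) and in DESeq2 (0.846, adjusted p = 0.0321). With the replicate number as a block it passed at 0.853 (edgeR adjusted p = 5.73e-09). Its adjusted p ranged from 7.53e-13 to 0.182 over 17 alternatives. NBR1 (ENSG00000188554, chromosome 17, 43170481 to 43211689), a receptor related to p62 in structure, was at 69.4, 72.1 and 68.7 CPM in control and 155.8, 131.4 and 130.0 CPM in siADAR1. Its controls differed by under 4 CPM, and it rose by 0.99 ± 0.10 (1.99-fold, edgeR adjusted p = 3.73e-06). OPTN (ENSG00000123240, chromosome 10, 13099449 to 13138308), the receptor optineurin, was at 53.6, 58.6 and 62.0 CPM in control and 114.2, 105.0 and 96.4 CPM in siADAR1 (0.86 ± 0.10, edgeR adjusted p = 1.52e-05). CALCOCO2, which encodes the receptor NDP52, rose from 27.1 ± 3.72 to 39.2 ± 2.87 CPM (0.53 ± 0.12, edgeR adjusted p = 3.00e-03).

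The mitophagy receptors BNIP3 and BNIP3L, membrane proteins of mitochondria induced by hypoxia, did not share this rise. BNIP3L (NIX) was at 53.0, 88.8 and 85.6 CPM in control and 43.3, 55.2 and 57.0 CPM in siADAR1. The groups overlapped because control replicate 1 was low, and the fall passed narrowly (-0.55 ± 0.19, edgeR adjusted p = 0.0344). Without both libraries numbered 1 it was -0.638 (edgeR adjusted p = 2.78e-08). The call was lost without control replicate 2 (-0.422, edgeR adjusted p = 0.107) and without control replicate 3 (-0.463, edgeR adjusted p = 0.0906). It was also lost without siADAR1 replicate 1 (-0.434, edgeR adjusted p = 0.145) and without siADAR1 replicate 2 (-0.598, edgeR adjusted p = 0.0597). Library totals alone (-0.432, edgeR adjusted p = 0.0783), limma-voom (-0.52, limma adjusted p = 0.0549) and every fit on FPKM lost the call as well. In all, 9 of 17 alternatives lost it, and the adjusted p ranged from 2.78e-08 to 0.181. BNIP3 had only 23 to 34 counts per library, at 2.05, 2.02 and 1.97 CPM in control and 1.63, 1.53 and 1.46 CPM in siADAR1 (-0.38 ± 0.31, edgeR adjusted p = 0.326). The table also lists 39 pseudogenes of BNIP3, with 181 counts in all against 170 for the gene, so both its level and its change are uncertain. Beside these genes, 12 of 18 other hypoxia-induced genes fell and 4 rose (88.9% called, against 51.0% of all tested genes, median -0.67). LDHA, lactate dehydrogenase A, had a log2 fold change of -1.27 ± 0.11, P4HA2, a collagen prolyl hydroxylase subunit, of -1.22 ± 0.12 and SLC2A1, a glucose transporter, of -0.77 ± 0.08 (edgeR adjusted p = 2.80e-06, 5.38e-06 and 6.41e-06). VEGFA, an angiogenic growth factor, rose by 2.14 ± 0.13 (edgeR adjusted p = 3.25e-07).

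Levels were compared between genes per kilobase of all annotated exons of a gene. This length can exceed that of the transcripts present, so the order between genes is approximate. SQSTM1 led at 84.5 CPM per kb in control and 152 in siADAR1. RB1CC1, BNIP3L and ATG4D followed in control, at 18.0, 17.6 and 17.6 CPM per kb, which their spread does not separate. In siADAR1 the next places were held by UVRAG at 31.5 ± 5.93 (SD, n = 3), MAP1LC3B at 30.6 ± 8.18 and RB1CC1 at 25.2 ± 1.66 CPM per kb. MAP1LC3B overlapped both of its neighbours in this order, and BNIP3L was at 12.0 CPM per kb. The lowest genes in control were ULK2 at 0.303, BNIP3 at 0.378, PIK3C3 at 1.01 and GABARAP at 1.02 CPM per kb. The place of PIK3C3 rests on its 15198 exon bases, since its mean of 15.35 CPM in control lay above the 6.99 CPM of ATG10. The ratio of a pair of genes within a library needs no scaling factor, and such ratios were computed for 11 pairs. With 3 libraries against 3, an exact permutation test cannot go below 0.1, so they are described without a test. ULK1 exceeded ULK2 by a ratio of 18.5, 19.5 and 20.2 per kilobase in control and 164, 112 and 119 in siADAR1. GABARAPL1 to GABARAPL2 was 0.648, 0.644 and 0.637 in control and 1.12, 0.940 and 0.916 in siADAR1. ATG4A to ATG4B was lower in siADAR1, at 0.369, 0.324 and 0.396 against 0.447, 0.526 and 0.532. ATG4D to ATG4B was higher, at 2.70, 2.27 and 2.26 against 1.87, 1.90 and 1.79. The groups overlapped for ATG2A to ATG2B, WIPI1 to WIPI2, BNIP3 to BNIP3L, SQSTM1 to NBR1 and TFEB to TFE3.

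**Figure D3:**
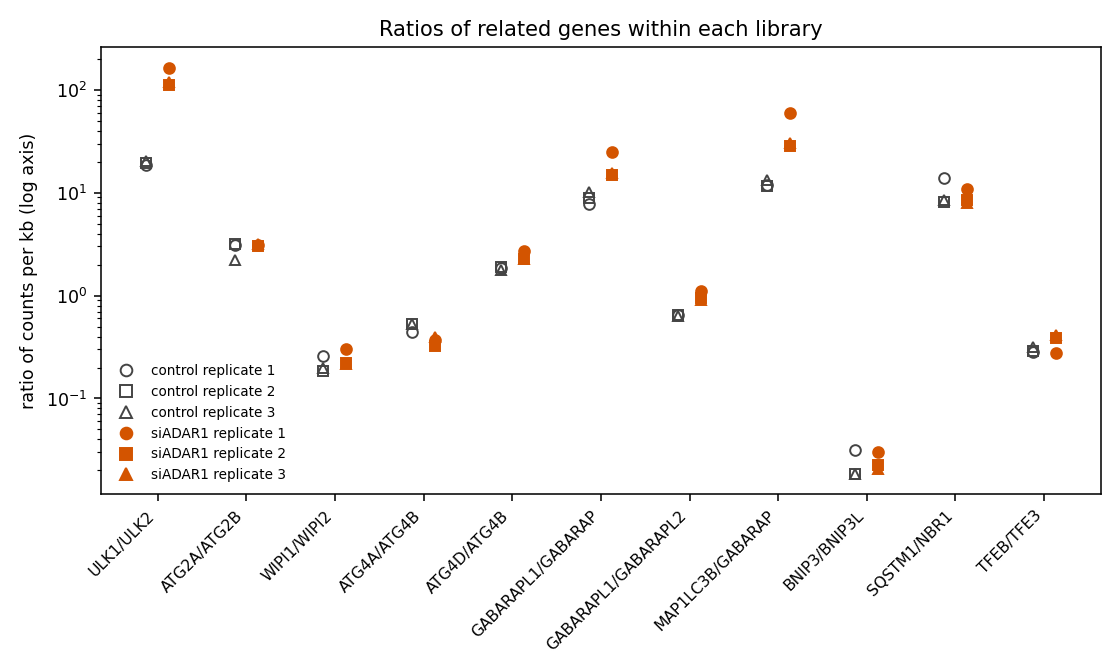
Ratio of counts per kilobase between 11 pairs of autophagy genes within each library, on a log axis; open grey symbols are controls, filled orange symbols siADAR1, and shapes give the replicate number. ULK1/ULK2 moved from a mean of 19.4 to 131, and GABARAPL1/GABARAPL2 from 0.643 to 0.993, while SQSTM1/NBR1 overlapped between groups.

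Many of the genes overlap another gene on the opposite strand, and no strand-marking step is described for the libraries. Reads in the shared exons cannot then be told apart, so the partners' values are given here. ATG12 shares 4.25% of its exon bases with AP3S1, which also rose (0.39 ± 0.10) and held 12944 counts against 8038. ATG4B shares 3.57% with THAP4, which also fell (-0.42 ± 0.12) and held 5025 counts against 5241. UVRAG shares 3.78% with UVRAG-DT, which rose by 1.15 ± 0.38 but held 159 counts against 14072. For the other called genes with such a partner, the partner moved the other way, was not called or had too few counts to be tested. BECN1 shares 4.68% with PSME3, which fell (-0.40 ± 0.09) and held 21129 counts against 4106. ATG7 shares 18.1% with VGLL4 (0.23 ± 0.10, not called), which held 5698 counts against 3684. MAP1LC3B shares 2.82% with FBXO31 (-0.33 ± 0.16, not called), which held 3097 counts against 11195. SQSTM1 shares 20.7% of its exon bases with MRNIP (0.19 ± 0.14, not called), which held 2523 counts against 88627. The uncalled ATG10 shares 6.86% with RPS23, a ribosomal protein gene with 9682 counts against 668.

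Other genes of the pathway were described from related lists. Of 14 tested further autophagosome genes, 9 rose and 0 fell (64.3% called, against 51.0% of all tested genes), and the median of the list was 0.45. Without siADAR1 replicate 1, 5 rose, without control replicate 2 or control replicate 3, 6 rose in each case, and without control replicate 1, 1 fell. RUBCN, an inhibitor of the UVRAG complex, rose by 0.69 ± 0.11, AMBRA1, a BECN1 partner, by 0.60 ± 0.12 and ATG16L2 by 0.82 ± 0.19 (edgeR adjusted p = 2.32e-04, 9.23e-04 and 2.84e-03). MAP1LC3A, MAP1LC3C, ATG9B and BECN2 had too few counts to be tested. Of 21 further selective receptors, 6 rose and 6 fell, or 57.1% (median 0.11). With library totals alone 9 rose and 3 fell (median 0.227), and the median was 0.0358 without siADAR1 replicate 1, 0.0479 without control replicate 3, 0.0519 without siADAR1 replicate 2 and 0.18 without siADAR1 replicate 3. BCL2L13, a mitophagy receptor, rose by 0.75 ± 0.08 and TAX1BP1, a relative of NDP52, by 0.56 ± 0.09 (edgeR adjusted p = 1.11e-05 and 2.48e-04). RTN3, a receptor for the endoplasmic reticulum, had -0.68 ± 0.10 and PHB2, an inner-membrane mitophagy receptor, -0.40 ± 0.08 (edgeR adjusted p = 1.28e-04 and 1.44e-03). Of 15 genes for fusion with the lysosome, 6 rose and 2 fell (median 0.01), a share called of 53.3% that lay near the 51.0% of all genes. Those with the smallest p were TECPR1, VPS11 and EPG5, which rose by 0.84 ± 0.12, 0.72 ± 0.11 and 0.78 ± 0.13 (edgeR adjusted p = 8.73e-05, 1.70e-04 and 2.67e-04). With library totals alone 0 of the fusion genes fell, and 1 fell without control replicate 2 or without any siADAR1 replicate.

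Of 32 lysosome genes, a class that TFEB and TFE3 are known to induce, 14 fell and 7 rose (65.6% called, against 51.0% of all tested genes). The median of the list was -0.18, against 0.27 for the 37 autophagy genes and 0.00 for all genes. Among those that fell, the membrane protein gene CD63 had a log2 fold change of -0.59 ± 0.08 (edgeR adjusted p = 6.21e-05). ATP6V1H, a subunit of the proton pump, rose by 0.85 ± 0.11, the chloride transporter gene CLCN7 by 0.93 ± 0.14 and SGSH, a sulfatase, by 0.90 ± 0.15 (edgeR adjusted p = 2.68e-05, 9.70e-05 and 2.64e-04). With library totals alone 10 lysosome genes fell and 7 rose, and the median of this list was -0.0608.

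Upstream of ULK1, 12 of 36 genes of the MTORC1 and AMPK pathways rose and 5 fell (median 0.17). The share called, 47.2%, was below the 51.0% of all tested genes. With library totals alone 20 rose, and without both libraries numbered 1, 8 fell. SESN2, an inhibitor of MTORC1 signalling, was at 40.2, 26.3 and 28.2 CPM in control and 125.4, 104.0 and 98.6 CPM in siADAR1 (log2 fold change 1.79 ± 0.15, edgeR adjusted p = 2.68e-06). PRKAB2, a regulatory subunit of AMPK, rose by 1.18 ± 0.09, and FNIP2, a partner of folliculin, by 0.84 ± 0.12 (edgeR adjusted p = 7.34e-07 and 6.78e-05). RHEB, the small GTPase that activates MTORC1, fell from 103.7 to 62.0 CPM (-0.74 ± 0.09), and SESN1 and CAMKK2 had -1.13 ± 0.17 and -0.62 ± 0.11 (edgeR adjusted p = 2.39e-05, 1.34e-04 and 3.28e-04). Of 13 tested further transcription factors assigned to autophagy genes, 9 rose and 0 fell (69.2% called, against 51.0% of all tested genes, median 0.36). Without siADAR1 replicate 3, 6 rose and 1 fell, without siADAR1 replicate 2, 6 rose, and without control replicate 1, 1 fell. DDIT3, which encodes CHOP, rose by 2.31 ± 0.13, FOXO1 by 1.47 ± 0.13 and MITF by 1.61 ± 0.15 (edgeR adjusted p = 1.03e-07, 1.74e-06 and 2.90e-06).

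**Figure D4:**
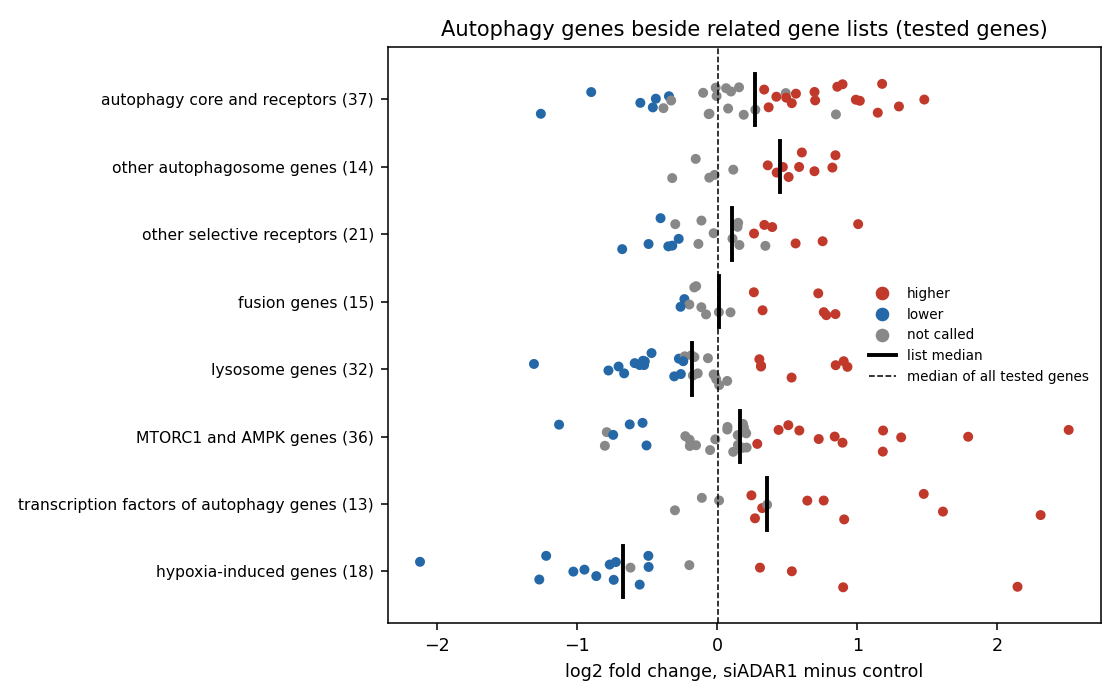
Log2 fold change, siADAR1 minus control, of every tested gene in the autophagy list and 7 related lists (number tested in brackets); colours give the call, thick bars the list medians and the dashed line the median of all tested genes at 0.00. The autophagy list has its median at 0.27, the lysosome genes at -0.18 and the hypoxia-induced genes at -0.67.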

How the data were processed

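The authors deposited raw read counts per gene (whole numbers, per the file headers). FPKM values were also deposited per library, scaled by a library factor of the authors. The submitters' processing notes name HISAT2 2.0.5, fastp and CASAVA without saying what each did. How reads were counted, and on which build and annotation, is not given in the sources used here, but all 58735 gene coordinates equalled those of GENCODE release 29 on GRCh38. Columns were matched to samples by title, and 0 were left without a sample.

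The counts went into edgeR 4.0.16 under R 4.3.3 (filterByExpr with a minimum count of 10, TMM scaling, robust quasi-likelihood fit on group alone, two-sided, Benjamini-Hochberg over 15294 genes, threshold 0.05). The SE is the log2 fold change divided by the square root of F. Members, lists, promoter motifs and ratio pairs were chosen with earlier results of these data known, so lists are described by counts and medians with no set test. All members are named. Values in every library are given for members that passed with at least 1.5-fold, for low or uncertain ones and for the transcription factor and ATG8 genes, and from related lists up to 3 passing genes per direction. Alternatives were other size factors, library totals alone, DESeq2 1.42.0, limma-voom and limma-trend on FPKM (limma 3.58.1), other filters, the replicate number as a block, and leaving out libraries. On simulated data with known changes the test's share of false calls lay above the threshold of 0.05. Counts carry no molecular identifiers. Some genes of the related and marker lists are not reported here by name.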

Additional observations from a re-analysis of the deposited data

How the results depend on the processing

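Across 17 alternatives the number of autophagy genes that rose was 13 to 19 and the number that fell 4 to 6. Direction and side of the threshold held in every alternative run for 21 of the 37 genes, 13 that rose, 3 that fell and 5 not called. The median log2 fold change of the list was 0.27, and 0.39 with library totals alone, 0.327 on FPKM with a pseudocount of 0.1, 0.149 on FPKM without a filter and 0.189 without both libraries numbered 1. It was 0.22 to 0.325 when a single library was left out. Genes near 0 that were not called changed sign. With library totals alone ATG13 was at 0.108, ATG101 at 0.0629, WIPI2 at 0.018, ATG10 at 0.113 and ATG4D at 0.0579. ATG10 was at 0.00675 with limma-voom, 0.0017 with the filter of 1 CPM in 3 libraries and 0.00159 with the replicate block. WIPI2 was at 0.00272 without both libraries numbered 1. When single libraries were left out, ATG13 ranged from -0.121 to 0.0749, ATG10 from -0.113 to 0.0498, ATG4D from -0.162 to 0.0395, WIPI1 from -0.122 to 0.379, WIPI2 from -0.175 to 0.0123 and the median of the fusion genes from -0.0544 to 0.0412. The causes were not tested. On FPKM without a filter, 3 genes of the further autophagosome list and 3 of the further selective receptor list rose in all, against 9 and 6 above. Without both libraries numbered 1, or with the replicate block, 1 gene of the further autophagosome list fell. The same held for 1 gene of the further transcription factor list, against 0 of either list above. On FPKM without a filter the calls of ATG2B and ATG7 were lost (limma adjusted p = 0.0611 and 0.0581).

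With the replicate number as a block, 18 members rose and 6 fell, and RB1CC1 and SQSTM1 passed (0.548 and 0.853, edgeR adjusted p = 0.0067 and 5.73e-09). Deviations of same-numbered libraries from their group means correlated at 0.301, 0.0963 and 0.177. Control replicate 2 correlated more with siADAR1 replicate 3 (0.141) than with its own number, and every other library correlated most with its own number. No label says that a number marks a shared culture or day, so the numbers were not taken as pairs. The libraries numbered 1 did share deviations (0.301), and each correlated at -0.25 to -0.14 with the other numbers of the opposite group. Deviations from a group mean cancel within the group, so these negative values follow on balance from the positive one and add no support. The test without a block leaves the part shared by the libraries numbered 1 in its spread. ULK2, BNIP3 and GABARAP, with 20 to 47 counts per library, are the members whose changes the depth limits most.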
